A study of Mus musculus with 6 samples.

Results

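The tumour necrosis factor (TNF) superfamily was taken here as the genes of the count table whose symbol begins with Tnfrsf (receptors) or Tnfsf (ligands), together with Tnf, Lta, Ltb, Ltbr, Fas, Fasl, Cd27, Cd70, Eda and Edar. This gave 41 of the 24421 genes in the table, of which 17 encode ligands, 23 encode receptors and 1, Tnfsfm13, is a read-through of the neighbours Tnfsf12 and Tnfsf13. Its levels were compared in 6 mouse neurofibromas, benign tumours of the nerve sheath, by RNA sequencing. A Mir-155 knockout was present in 3 of them, MiRNC149, MiRNC640 and MiRNC670, called miR155KO_Nf1KO. The other 3, called Nf1KO, were Nf803, Nf809 and Nf827 and are not labelled with that knockout. Both groups were on a C57BL/6J background and carried floxed Nf1 with a Dhh promoter-driven Cre, which acts in the Schwann cell lineage, so that the other cells of the tumour keep Nf1. No drug was given to either group. Ages and sexes are not in the labels, and neither is the time at which each tumour was taken. The series was designed to look for possible miR-155 targets among genes that differ between the groups.

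TNF superfamily ligands are mostly trimers made as membrane proteins, many of which can be cut from the cell surface. Their receptors signal in one of several ways. Receptors with a death domain recruit adaptors such as FADD or TRADD, other receptors bind TRAF adaptors that lead to NF-kB and JNK, and decoy receptors bind a ligand without relaying a full signal. In nerve and its tumours these genes are expressed by macrophages, lymphocytes, Schwann cells, fibroblasts and neurons, and bulk RNA does not separate fewer cells of a type from less RNA per cell.

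Libraries held between 13061129 and 16333181 reads, and the family took between 0.0319% and 0.0559% of them. Mir155hg, the host transcript of miR-155, had 5, 3 and 1 reads in MiRNC149, MiRNC640 and MiRNC670, against 57, 66 and 71 reads in Nf803, Nf809 and Nf827, so the libraries match their labels. Sox10, the defining transcription factor of the Schwann cell lineage, was at 277 to 333 CPM in miR155KO_Nf1KO and at 215 to 263 CPM in Nf1KO. Every miR155KO_Nf1KO tumour was thus above every Nf1KO tumour for Sox10, though it was not called. CPM stands for counts per 1000000 reads of the library after TMM scaling, and a log2 fold change is miR155KO_Nf1KO over Nf1KO throughout. The labels number the tumours without saying that each came from its own mouse, so p-values refer to the spread between these samples, which may be partly technical. By their Xist reads, MiRNC149, Nf803 and Nf827 were female and the other tumours male.

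Of the 41 family genes, 27 passed the low-count filter and were tested, and 7 of these were called lower in miR155KO_Nf1KO by edgeR at an adjusted p under 0.05: Tnfrsf23, Tnfrsf26, Tnfsf13b, Tnfrsf1a, Tnfrsf13c, Tnfrsf1b and Tnfsf8. Over all 15604 genes tested, 4.74% were called lower and 9.96% in either direction. No family gene was called higher by edgeR, DESeq2 or limma voom, where edgeR called 5.22% of all genes higher, and 1 family gene, Tnfrsf21, was higher at an unadjusted p under 0.05 (13.5% of all genes were). The median log2 fold change of the 27 tested members was -0.62, beside 0.01 for all tested genes, and 23 of the 27 had a negative value. In 13 of the 27 every miR155KO_Nf1KO tumour was below every Nf1KO tumour, and in none was it the reverse, whereas each of these patterns held for 16.3% of all tested genes. DESeq2 called 8 members lower (9.44% of all genes) and limma voom 6 (3.88%).

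Leaving out 1 tumour ended calls across all genes, not those of the family alone. Without MiRNC640, MiRNC670, Nf803 or Nf827 edgeR called 0 members lower (smallest adjusted p among members 0.0525, 0.0848, 0.0838 and 0.0668), while 9, 8, 8 and 7 members were still lower at an unadjusted p under 0.05. With all 6 tumours, 8 of the 27 tested members and 2052 of all 15604 genes were lower at that unadjusted threshold. In the refits, genes outside the family were not counted at that threshold. The same refits called 43, 0, 0 and 0 of all genes lower and 99, 0, 0 and 0 higher. Without MiRNC149 or without Nf809 the count stayed at 7. Tumour Nf809 was the lowest Nf1KO tumour for 6 of the 7 called genes, and tumour MiRNC149 the highest miR155KO_Nf1KO tumour for 5 of the 7. By Xist reads, Nf809 was the only male Nf1KO tumour and MiRNC149 the only female miR155KO_Nf1KO tumour. Sex and tumour cannot be told apart in this order.

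**Figure D1:**
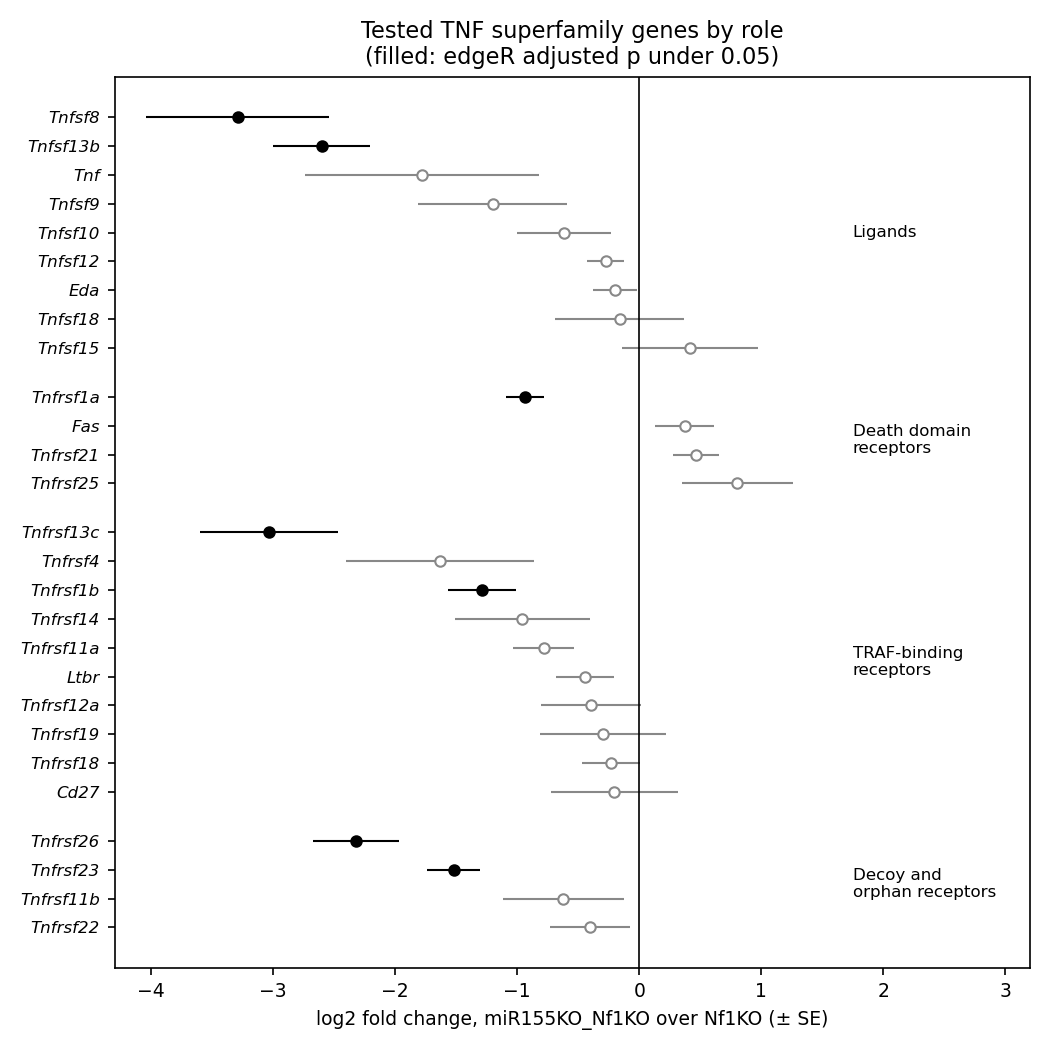
Log2 fold change of miR155KO_Nf1KO over Nf1KO for the 27 tested genes, grouped by role, with bars of 1 standard error on each side and filled points for an edgeR adjusted p under 0.05. The 7 filled points lie between -0.94 (Tnfrsf1a) and -3.29 (Tnfsf8), and the 4 genes right of zero are Tnfsf15, Fas, Tnfrsf21 and Tnfrsf25.

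Because the knockout removes miR-155, the family was searched for the sites this microRNA can pair with. A microRNA represses transcripts mainly by pairing its seed with the 3′ UTR. The mature strand is shown with its seed, bases 2 to 8, in capitals, and below it each family 3′ UTR stretch (GENCODE M21, GRCm38) that holds a match to the seed, with the match in capitals and 8 bases on each side.
mmu-miR-155-5p: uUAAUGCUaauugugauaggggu
Tnfrsf11a, chr1:105847731-105847754, plus strand: gtgctaagAGCATTAAgaatctac
Tnfrsf26, chr7:143608401-143608423, minus strand: ctgtcttaAGCATTAttgtacat
Tnfrsf22, chr7:143636325-143636347, minus strand: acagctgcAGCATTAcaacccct
Tnfsf9, chr17:57107656-57107678, plus strand: cactagatAGCATTAgtaaactg
Tnfrsf13b, chr11:61147880-61147902, plus strand: cggcacctAGCATTAcccttaca

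The microRNA sequence is that of RefSeq (GRCm38.p6, chromosome 16, 84714143 to 84714165, plus strand). A site was AGCATTA (seed match) or GCATTAA (shorter match followed by A), and AGCATTAA, which contains both, is the 8-base site. Sites were sought on the transcript strand of the longest annotated 3′ UTR. They were present in 4 of the 27 tested family genes (14.8%), beside 14.2% of the 14027 tested genes with a 3′ UTR. The 8-base site occurred in 1 of the 27 (3.7%), Tnfrsf11a, beside 3.48% of tested genes. All 4 tested genes with a site had a negative log2 fold change in tumours without miR-155, as did 23 of the 27 tested family genes. The values were -2.33 for Tnfrsf26, -1.20 for Tnfsf9, -0.78 for Tnfrsf11a and -0.40 for Tnfrsf22, and Tnfrsf26 was the one called. The fifth gene, Tnfrsf13b, did not pass the low-count filter. A match is a description of the letters and not a measured binding site.

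Among the ligands, Tnfsf13b and Tnfsf8 fell. Tnfsf13b (chromosome 8, 10006467 to 10039072, GRCm38) encodes BAFF, a survival factor for B cells made largely by myeloid cells. It stood at 1.29, 0.946 and 1.03 CPM in MiRNC149, MiRNC640 and MiRNC670, against 5.01, 5.44 and 9.51 CPM in Nf803, Nf809 and Nf827. The groups were apart, with the highest miR155KO_Nf1KO tumour well below the lowest Nf1KO tumour. Its mean was 16.4% of that in Nf1KO, a log2 fold change of -2.60 (SE 0.40, edgeR adjusted p = 0.0212).

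Tnfsf8 (chromosome 4, 63831308 to 63861347) encodes CD30 ligand, which activated lymphocytes and some myeloid cells display. It had 2.32, 0.270 and 0.792 CPM in MiRNC149, MiRNC640 and MiRNC670, against 8.64, 6.55 and 18.4 CPM in Nf803, Nf809 and Nf827. All miR155KO_Nf1KO values lay under the lowest Nf1KO value, although tumours within each group differed several-fold. The log2 fold change was -3.29 (SE 0.75, edgeR adjusted p = 0.0392), and it was not called by limma voom (adjusted p = 0.0576) or, by edgeR, without MiRNC670 and Nf809 (adjusted p = 0.0906). The CD30 receptor gene Tnfrsf8 was almost unread, with 1 read in all miR155KO_Nf1KO tumours and 5 in all Nf1KO tumours.

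Tnf itself, the founding cytokine of the family, was a low transcript and was not called. It had 0, 9 and 9 reads in MiRNC149, MiRNC640 and MiRNC670, against 22, 16 and 29 reads in Nf803, Nf809 and Nf827. The groups did not overlap, yet with so few reads the log2 fold change of -1.78 had an SE of 0.96 (edgeR adjusted p = 0.286). Lta and Ltb, its neighbours on chromosome 17 and the subunits of lymphotoxin, had 4 and 0 reads in all miR155KO_Nf1KO tumours and 10 and 8 reads in all Nf1KO tumours.

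The ligands with most reads were not called. Tnfsf12, which encodes TWEAK, an inducer of growth and repair signals, had 19.5, 19.1 and 21.8 CPM in miR155KO_Nf1KO and 22.7, 25.5 and 24.8 CPM in Nf1KO, with a log2 fold change of -0.28 (SE 0.15, edgeR adjusted p = 0.292). The groups were just apart, but 46.8% of its 50-base stretches also occur in Tnfsfm13, so its count is uncertain. Tnfsf10, which encodes the death-inducing ligand TRAIL, had 8.05, 21.8 and 14.7 CPM in miR155KO_Nf1KO and 22.6, 16.1 and 29.8 CPM in Nf1KO. Those ranges overlapped (log2 fold change -0.62, SE 0.38). Eda, the ectodysplasin ligand of skin appendage development, was at 18.5, 17.4 and 21.9 CPM in miR155KO_Nf1KO and 21.4, 19.6 and 25.3 CPM in Nf1KO, also with overlap (-0.20, SE 0.18). Tnfsf9, the ligand of the T cell receptor 4-1BB, had 9, 4 and 3 reads in miR155KO_Nf1KO and 15, 12 and 11 in Nf1KO, and was not called (-1.20, SE 0.61, edgeR adjusted p = 0.263). Tnfsf18, the ligand of GITR, and Tnfsf15, the TL1A ligand of endothelial and myeloid cells, were not called, at -0.16 (SE 0.53) for Tnfsf18 and 0.41 (SE 0.56) for Tnfsf15 on the log2 scale.

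The other ligand genes did not pass the filter, namely Tnfsf4, Tnfsf11, Tnfsf13, Tnfsf14, Fasl, Cd70, Lta and Ltb. Fasl, which triggers death through Fas and marks cytotoxic lymphocytes, had 2, 0 and 1 reads in miR155KO_Nf1KO and 4, 4 and 24 reads in Nf1KO, most of them in Nf827. Tnfsf13, the APRIL gene, had 8 reads in all miR155KO_Nf1KO tumours and 23 in all Nf1KO tumours, and 57.3% of its 50-base stretches are shared with Tnfsfm13, which had 12 in each group. Tnfsf11, which encodes RANKL, had 9 reads in miR155KO_Nf1KO against 3 in Nf1KO, and Tnfsf14, which encodes LIGHT, had 11 in miR155KO_Nf1KO against 14 in Nf1KO. Tnfsf4, which encodes OX40 ligand, had 5 in miR155KO_Nf1KO against 1 in Nf1KO, and Cd70, the ligand of CD27, 0 in miR155KO_Nf1KO against 4 in Nf1KO. A count of 0 in a library allows up to 0.185 to 0.238 CPM (3 reads), counting error only. These genes were not tested, and most had counts at or near this limit. Fasl did not overlap between the groups, and each of its Nf1KO values was above the limit, though Nf803 and Nf809 held 4 reads each. Tnfrsf13b, an untested receptor gene, also did not overlap, with 3, 0 and 0 reads in miR155KO_Nf1KO and 5, 4 and 8 in Nf1KO.

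**Figure D2:**
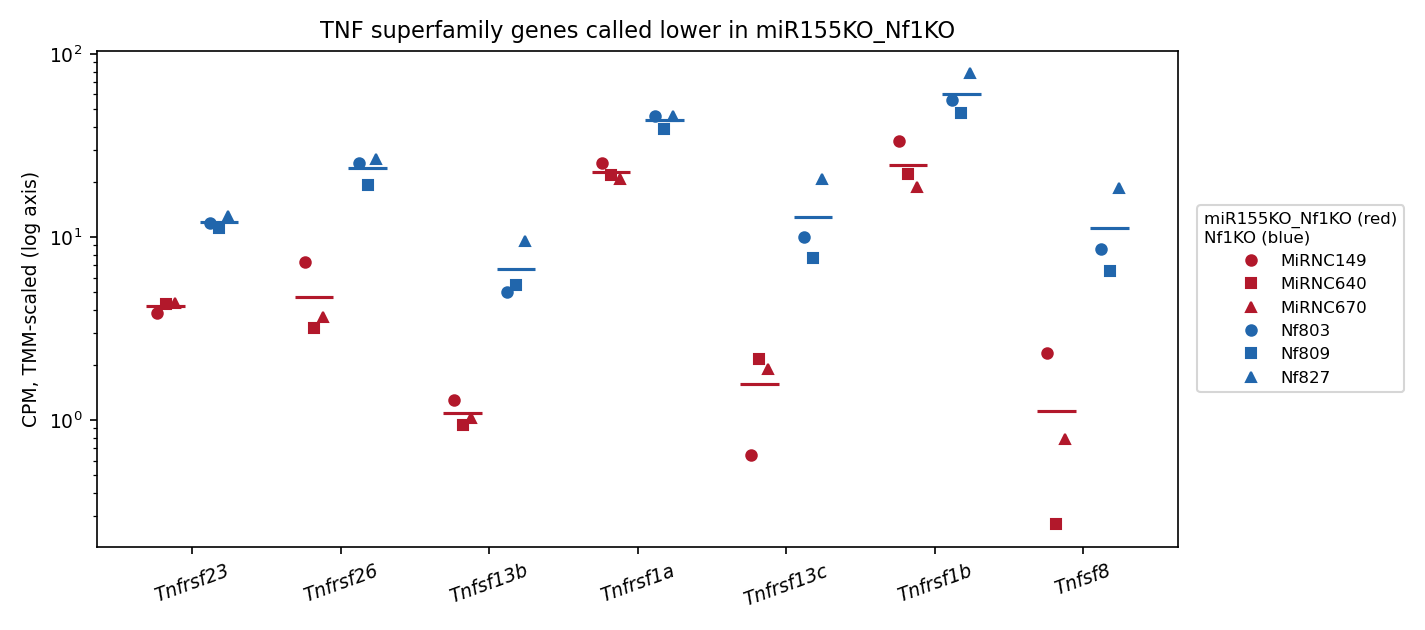
CPM after TMM scaling, on a log axis, of the 7 genes called lower, with 1 point per tumour and a bar at each group's mean; miR155KO_Nf1KO (red) stands left of Nf1KO (blue). Every red point lies below every blue point of the same gene, and Tnfrsf23 shows the narrowest spread, at 3.86 to 4.36 CPM in miR155KO_Nf1KO and 11.1 to 12.99 CPM in Nf1KO.

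Both receptors for TNF fell. Tnfrsf1a (chromosome 6, 125349362 to 125362484) encodes TNFR1, the broadly expressed receptor whose death domain recruits TRADD. Its level was 25.5, 21.7 and 20.8 CPM in MiRNC149, MiRNC640 and MiRNC670, against 45.7, 38.9 and 45.7 CPM in Nf803, Nf809 and Nf827. The groups did not overlap and spread little within themselves. The log2 fold change was -0.94 (SE 0.16, edgeR adjusted p = 0.0240), which left 52.2% of the Nf1KO mean.

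Tnfrsf1b (chromosome 4, 145213463 to 145246870) encodes TNFR2, which binds TRAF adaptors and is found mainly on immune and endothelial cells. It had 33.5, 22.0 and 18.8 CPM in MiRNC149, MiRNC640 and MiRNC670, against 55.9, 47.4 and 78.3 CPM in Nf803, Nf809 and Nf827. Tumour MiRNC149 came closest to the Nf1KO range without entering it. The log2 fold change was -1.29 (SE 0.28, edgeR adjusted p = 0.0350), not called without MiRNC670 and Nf809, the tumours high in muscle markers (adjusted p = 0.0576).

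The other tested receptors with a death domain had positive values and were not called. Tnfrsf21, the DR6 gene of neurons and glia, was the family's most abundant transcript per exon length. It had 146, 102 and 154 CPM in MiRNC149, MiRNC640 and MiRNC670, against 113, 91.1 and 87.3 CPM in Nf803, Nf809 and Nf827, so that MiRNC640 fell inside the Nf1KO range. The log2 fold change was 0.46 (SE 0.19, edgeR adjusted p = 0.169). Fas, the receptor of Fas ligand, was at 9.21, 10.4 and 7.45 CPM in miR155KO_Nf1KO and at 7.33, 6.00 and 7.57 CPM in Nf1KO, overlapping at MiRNC670 (0.37, SE 0.24). Tnfrsf25, which encodes the TL1A receptor DR3, had 3.93, 3.31 and 2.06 CPM in miR155KO_Nf1KO and 1.31, 2.53 and 1.47 CPM in Nf1KO (0.80, SE 0.45). Edar, the ectodysplasin receptor, had 10, 1 and 0 reads in miR155KO_Nf1KO and 6, 0 and 0 in Nf1KO, outside the filter. In the same tumours the neuron markers Snap25, Tubb3, Nefl, Nefm, Nefh, Isl1 and Prph summed to 5169 to 8146 CPM in miR155KO_Nf1KO and to 1249 to 2416 CPM in Nf1KO, with 5 of the 7 called higher, and their part in the levels of Tnfrsf21 was not tested.

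Tnfrsf13c, which encodes the BAFF receptor, also fell. This receptor (chromosome 15, 82221743 to 82224369) supports mature B cells. It had 0.644, 2.16 and 1.90 CPM in MiRNC149, MiRNC640 and MiRNC670, against 10.02, 7.67 and 20.8 CPM in Nf803, Nf809 and Nf827. Every Nf1KO tumour was above every miR155KO_Nf1KO tumour, with Nf827 highest. The log2 fold change was -3.03 (SE 0.57, edgeR adjusted p = 0.0263), and with sex as a covariate it was -3.08 but no longer called (adjusted p = 0.0528). The other receptors of this axis, Tnfrsf13b (TACI) and Tnfrsf17 (BCMA, a plasma cell receptor), had 3 and 0 reads in all miR155KO_Nf1KO tumours and 17 and 1 in all Nf1KO tumours.

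Classical B cell markers were scarce where Tnfrsf13c was read. Ms4a1, which encodes CD20, had 10, 4 and 1 reads in miR155KO_Nf1KO and 3, 1 and 44 reads in Nf1KO. Pax5, the B cell identity factor, had 0, 2 and 3 reads in miR155KO_Nf1KO and 0, 0 and 13 in Nf1KO. Tnfrsf13c itself had 10, 32 and 24 reads in miR155KO_Nf1KO and 138, 124 and 311 in Nf1KO. Tumours Nf803 and Nf809 thus had no read of Pax5 at 138 and 124 reads of Tnfrsf13c. The 7 B and plasma cell markers, led by Sdc1, which other cells also express, summed to 12.7 to 21.8 CPM in miR155KO_Nf1KO and to 32.3 to 59.1 CPM in Nf1KO, with 2 of 5 tested called lower (Jchain and Sdc1) and none at 0 in every tumour.

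Tnfrsf11a, the RANK receptor of osteoclast and dendritic cell biology and the gene with the 8-base site, was next in line. It stood at 49.3, 27.9 and 38.2 CPM in MiRNC149, MiRNC640 and MiRNC670, against 62.3, 53.7 and 82.7 CPM in Nf803, Nf809 and Nf827. The groups did not overlap. EdgeR did not call it (log2 fold change -0.78, SE 0.25, adjusted p = 0.0962), while DESeq2 did (adjusted p = 0.0274).

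The remaining tested TRAF-binding receptors were not called, and all had negative log2 fold changes. Tnfrsf4, the OX40 receptor of activated T cells, had 14, 10 and 3 reads in miR155KO_Nf1KO and 52, 15 and 16 in Nf1KO, barely apart (-1.63, SE 0.77, edgeR adjusted p = 0.228). Tnfrsf18, its neighbour on chromosome 4 and the GITR receptor of regulatory T cells, was at 20.02, 21.1 and 12.99 CPM in miR155KO_Nf1KO and 23.9, 22.6 and 17.1 CPM in Nf1KO, with overlap (-0.23, SE 0.24). An annotated gene on the opposite strand, Gm16008, shares 18.7% of the 50-base stretches of Tnfrsf18, and the strand setting of the counting is not given. Ltbr, the lymphotoxin beta receptor of stromal cells, had 5.67, 8.31 and 7.76 CPM in miR155KO_Nf1KO and 9.58, 9.15 and 10.8 CPM in Nf1KO (-0.44, SE 0.24). Those ranges did not overlap, without a call. Tnfrsf14 (HVEM, the LIGHT receptor) had a value of -0.96 (SE 0.55), Tnfrsf12a (the TWEAK receptor) -0.39 (SE 0.41), Tnfrsf19 (TROY, a receptor of neural and stem cells) -0.30 (SE 0.51) and Cd27, the CD70 receptor of lymphocytes, -0.21 (SE 0.52). Their groups overlapped in each case. Tnfrsf9, the 4-1BB receptor, had 2, 17 and 6 reads in miR155KO_Nf1KO and 6, 0 and 29 in Nf1KO, outside the filter.

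Of 3 neighbouring decoy and orphan receptor genes on chromosome 7, Tnfrsf26 and Tnfrsf23 fell. Tnfrsf26, Tnfrsf22 and Tnfrsf23 lie next to each other on the minus strand within 78214 bases (143607659 to 143685872). In mice, Tnfrsf22 and Tnfrsf23 encode decoy receptors for TRAIL, and Tnfrsf26 has no settled ligand. Tnfrsf26 was at 7.34, 3.17 and 3.64 CPM in MiRNC149, MiRNC640 and MiRNC670, against 25.4, 19.2 and 26.6 CPM in Nf803, Nf809 and Nf827. The mean was 19.9% of that in Nf1KO (log2 fold change -2.33, SE 0.35, edgeR adjusted p = 0.0212).

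Tnfrsf23 had the smallest p of the family. It was at 3.86, 4.32 and 4.36 CPM in MiRNC149, MiRNC640 and MiRNC670, against 11.9, 11.1 and 12.99 CPM in Nf803, Nf809 and Nf827, with little spread in either group. The log2 fold change was -1.52 (SE 0.22, edgeR adjusted p = 0.0201). Tnfrsf22, between them, was at 7.98, 8.58 and 12.9 CPM in miR155KO_Nf1KO and 15.7, 7.97 and 15.3 CPM in Nf1KO, so the groups overlapped (-0.40, SE 0.33, edgeR adjusted p = 0.490). The difference between Tnfrsf22 and its neighbours was not tested.

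Counts of this trio carry a limit. Of the 50-base stretches of Tnfrsf22, 27.4% also occur in another gene, mostly Tnfrsf23, and 19.3% of those of Tnfrsf23 occur elsewhere, mostly in Tnfrsf22. Summed, this pair stood at 11.8, 12.9 and 17.3 CPM in miR155KO_Nf1KO and at 27.6, 19.1 and 28.3 CPM in Nf1KO, which is 56.0% of the Nf1KO mean without overlap. E230032D23Rik, annotated on the opposite strand, overlaps exons of Tnfrsf23 and Tnfrsf26, and reads of the strands cannot be told apart without the strand setting. The nearest tested genes outside the cluster, Cars and Osbpl5, were not called, with Cars at -0.44 (SE 0.32) and Osbpl5 at 0.03 (SE 0.20) on the log2 scale.

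The remaining decoy receptor, Tnfrsf11b (osteoprotegerin, which binds RANKL and TRAIL), was at 1.09, 1.62 and 2.46 CPM in miR155KO_Nf1KO and 3.19, 1.55 and 3.21 CPM in Nf1KO. The groups overlapped (-0.62, SE 0.50, edgeR adjusted p = 0.481).

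**Figure D3:**
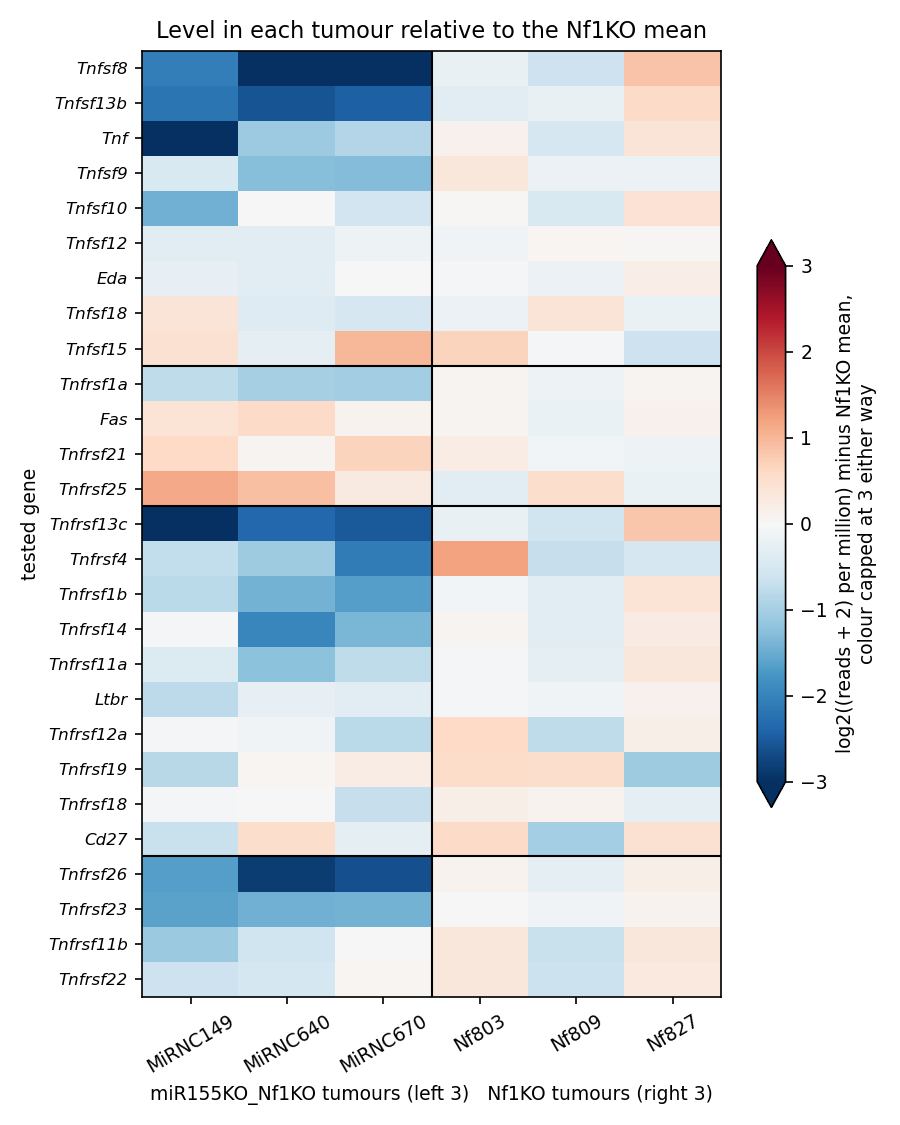
Level of each tested gene in each tumour, as log2 of reads plus 2, scaled as CPM, minus the Nf1KO mean, with rows ordered by role (ligands, death domain receptors, TRAF-binding receptors, decoy and orphan receptors) and colour capped at 3 either way. Blue cells gather in the left 3 columns (miR155KO_Nf1KO) for the called genes, and 4 cells pass the cap: Tnfsf8 in MiRNC640 (-4.67) and MiRNC670 (-3.44), Tnf in MiRNC149 (-3.63) and Tnfrsf13c in MiRNC149 (-3.94).

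Many family genes lie close together in the genome. With gaps of at most 200000 bases there were 9 groups of neighbours; 4 of them held a called gene. On chromosome 6, Cd27, Ltbr and Tnfrsf1a span 129863 bases, and Tnfrsf1a was the one called (-0.94, beside -0.44 for Ltbr and -0.21 for Cd27). On chromosome 4, Tnfsf15 and Tnfsf8 span 134264 bases and had log2 fold changes of 0.41 and -3.29. The chromosome 7 trio was the one group with 2 genes called.

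To compare levels between genes, CPM was divided by exon length. Tnfrsf21 led in both groups, at 32.6 ± 6.78 CPM per kb in miR155KO_Nf1KO and 23.7 ± 3.41 in Nf1KO (SD, n = 3 each). In miR155KO_Nf1KO it was followed by Tnfsf12 at 13.3 ± 0.950, Tnfrsf18 at 11.8 ± 2.88 and Tnfrsf1a at 8.75 ± 0.959 CPM per kb. In Nf1KO the next were Tnfrsf1a at 16.8 ± 1.51, Tnfsf12 at 16.1 ± 0.967, Tnfrsf1b at 15.9 ± 4.19 and Tnfrsf18 at 13.9 ± 2.34 CPM per kb, which lie within each other's spread. Tnfrsf26 was at 1.47 ± 0.709 CPM per kb in miR155KO_Nf1KO and 7.38 ± 1.24 in Nf1KO, and the called ligand Tnfsf13b, with its long exons, at 0.158 ± 0.0260 in miR155KO_Nf1KO and 0.969 ± 0.361 CPM per kb in Nf1KO.

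**Figure D4:**
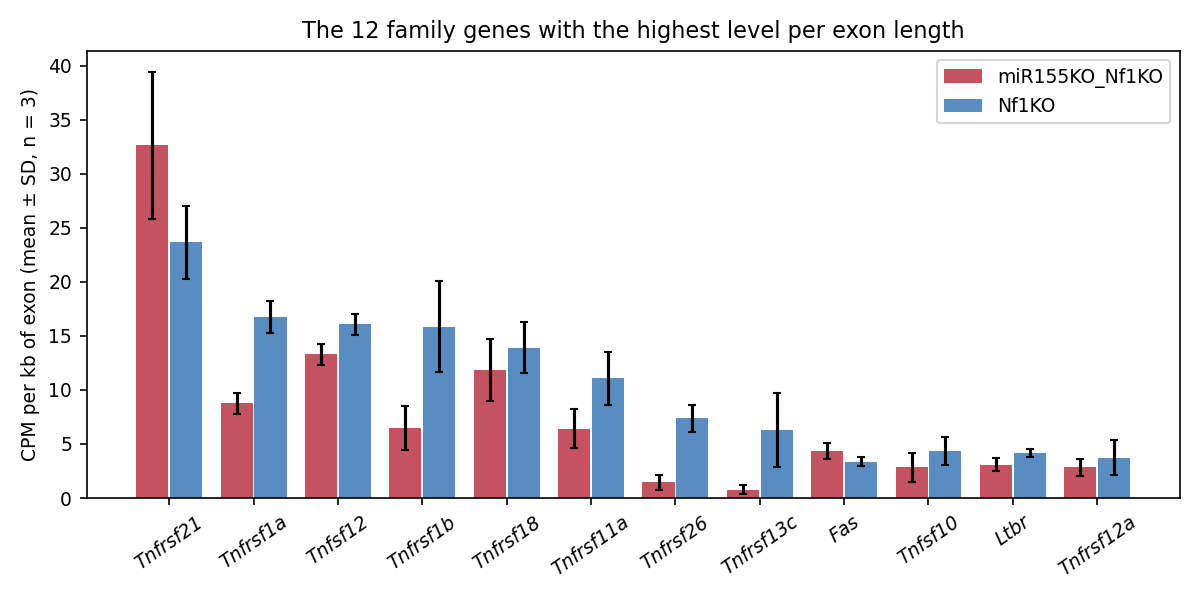
Mean CPM per kb of exon, with bars of 1 SD over 3 tumours, for the 12 family genes with the highest level in either group; miR155KO_Nf1KO (red) stands left of Nf1KO (blue). Tnfrsf21 is highest at 32.6 in miR155KO_Nf1KO and 23.7 in Nf1KO, and the red bars of Tnfrsf1a, Tnfrsf1b, Tnfrsf26 and Tnfrsf13c are shorter than the blue ones.

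Genes that relay family signals were examined in 6 lists of 85 genes, 81 of them tested. EdgeR called 11 lower and 0 higher, where 4.74% and 5.22% of all genes were called; 5 were higher at an unadjusted p under 0.05, and DESeq2 called 4 higher. Without MiRNC670, Nf803 or Nf827 edgeR called 0 of them lower, and without MiRNC640 it called 1. As given above, the first 3 of these refits called no gene of any kind, and the last called 43 of all genes lower.

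Of 23 adaptors and kinases, 3 fell and none rose by edgeR (none at an unadjusted p under 0.05), with a median of -0.34. Ripk3, the kinase of necroptosis, was at 0.708, 0.405 and 0.158 CPM in miR155KO_Nf1KO and 2.69, 6.99 and 3.28 CPM in Nf1KO (log2 fold change -3.30, SE 0.66). Birc3, a ubiquitin ligase of the TNFR1 complex, had a value of -0.91 (SE 0.19) and Map3k5, a stress kinase downstream of TRAF2, -0.55 (SE 0.14). Traf1, an adaptor bound by TNFR2, was not called (-1.15, SE 0.39).

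Of 14 death effectors, 4 fell. Casp8, the caspase that death receptors activate, was at 32.1, 42.4 and 28.7 CPM in miR155KO_Nf1KO and 77.9, 56.7 and 96.3 CPM in Nf1KO (log2 fold change -1.16, SE 0.24, edgeR adjusted p = 0.0306). Cflar, which encodes its inhibitor c-FLIP, fell by 0.60 on the log2 scale (SE 0.14), Bak1, a pore former of mitochondria, by 1.004 (SE 0.20) and Apaf1, the apoptosome scaffold, by 0.84 (SE 0.17). Members that promote and that restrain death are thus both among those that fell, and the list median was -0.36.

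Of 17 NF-kB genes, 2 fell, the subunit gene Rel (-0.98, SE 0.24) and Nfkbiz, a nuclear IkB protein (-0.96, SE 0.24), with a median of -0.51. Nfkb1 (-0.55, SE 0.15) and the kinase gene Ikbkb (-0.51, SE 0.15) were not called. Of 14 tested genes that TNF induces, Icam1, an adhesion molecule for leukocytes, was the 1 that fell (-1.87, SE 0.26). That is 7.14% of the list, near the 4.74% of all tested genes called lower. The median of this list was -0.83. At an unadjusted edgeR p under 0.05, 7 of its genes were lower and 1, Sod2, was higher (0.83, SE 0.29, not called). Over all 15604 genes tested, 2052 were lower and 2111 higher at that threshold. Il1b (-2.75, SE 0.71), Vcam1 (-0.85, SE 0.25) and Csf1 (-0.51, SE 0.16) were not called, and Ccl20, Cxcl2 and Il6 were outside the filter. Of 7 genes for shedding and maturation none was called, by edgeR or limma voom, with 3 at an unadjusted p under 0.05 and 2 called by DESeq2. Among them were Adam10, a sheddase (0.67, SE 0.21), Rhbdf1, a partner of ADAM17 (-0.61, SE 0.20), Sppl2a, a protease that cuts TNF in the membrane (-0.38, SE 0.13), and Adam17 itself (-0.32, SE 0.17).

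Of 6 tested family relatives that the symbol rule leaves out, Eda2r, the receptor for the A2 form of ectodysplasin, fell. It was at 12.6, 4.80 and 10.3 CPM in miR155KO_Nf1KO and 35.4, 32.0 and 34.7 CPM in Nf1KO (log2 fold change -1.88, SE 0.34, edgeR adjusted p = 0.0255). Cd40, a receptor of antigen-presenting cells, had a value of -2.79 (SE 0.74) and was not called (adjusted p = 0.0570). Ngfr, the neurotrophin receptor of Schwann cells, was at 262, 194 and 354 CPM in miR155KO_Nf1KO and 124, 211 and 112 CPM in Nf1KO, which overlap (0.86, SE 0.30). Rell2, a RELT-like protein gene, was not called (2.21, SE 0.60). Of the 11 called pathway genes, Casp8, Apaf1, Map3k5, Rel and Nfkbiz lost their calls with sex as a covariate and Ripk3 and Rel with limma voom. Without MiRNC670 and Nf809, Birc3, Icam1 and Casp8 kept theirs. Map3k5 and Nfkbiz were also not called with a CPM of at least 1 in 3 tumours, nor Map3k5 without a low-count filter or Nfkbiz with total counts.

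In 22 tested family genes with a RefSeq promoter (250 bases before to 50 after the start, GRCm38.p6), the kappa-B consensus was found on either strand in 1, Tnfrsf25 (4.55%), beside 12.2% of 11670 tested genes. Among 34 family genes with a promoter in the table it was found in 4 (11.8%), the others being Ltb, Tnfrsf8 and Tnfrsf9. None of the 6 called genes with a promoter in the table held it in this window.

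Several marker lists differed between the groups alongside the called genes, and others overlapped. The 10 macrophage markers summed to 415 to 815 CPM in miR155KO_Nf1KO and to 1201 to 2316 CPM in Nf1KO, so the miR155KO_Nf1KO mean was 32.7% of the Nf1KO mean, and 6 of 10 were called lower. In Nf1KO, Itgam gave the largest part of this sum, at a mean of 745 CPM. Mertk went the other way without a call (log2 fold change 0.38, SE 0.35). The 8 dendritic cell markers summed to 55.2 to 97.7 CPM in miR155KO_Nf1KO and to 225 to 502 CPM in Nf1KO, or 21.03% by the means, with 5 of 8 called lower. T cell markers summed to 10.5 to 12.9 CPM in miR155KO_Nf1KO and 17.2 to 66.0 CPM in Nf1KO (0 of 6 tested called by edgeR, 5 at an unadjusted p under 0.05 and 4 called by DESeq2). Natural killer cell markers summed to 5.09 to 10.3 CPM in miR155KO_Nf1KO and 18.7 to 50.6 CPM in Nf1KO (1 of 7 called). Of these, Gzma (0.44, SE 1.20) and Prf1 (0.46, SE 0.82) had positive log2 fold changes without a call. The 6 fibroblast markers summed to 4695 to 6043 CPM in miR155KO_Nf1KO and 9831 to 10516 CPM in Nf1KO, with 3 called lower. The 6 myelin markers went the other way, summing to 8831 to 19159.7 CPM in miR155KO_Nf1KO and 4956 to 5898 CPM in Nf1KO, with 6 of 6 called higher. Mast cell markers overlapped, at 21.8 to 37.5 CPM in miR155KO_Nf1KO and 22.8 to 56.8 CPM in Nf1KO, as did neutrophil markers, at 13.7 to 40.1 CPM in miR155KO_Nf1KO and 25.04 to 94.3 CPM in Nf1KO, with 1 of 4 tested called lower. Endothelial markers also overlapped, at 113 to 244 CPM in miR155KO_Nf1KO and 157 to 213 CPM in Nf1KO. So did the muscle (165 to 1809.6 CPM in miR155KO_Nf1KO and 5.56 to 1589 CPM in Nf1KO), adipocyte (75.8 to 1764 and 28.4 to 291 CPM in miR155KO_Nf1KO and Nf1KO) and epidermis lists (5.39 to 7.02 and 2.29 to 8.70 CPM in miR155KO_Nf1KO and Nf1KO). Of the mast cell, endothelial, muscle, adipocyte and epidermis markers none was called by edgeR, DESeq2 or limma voom, and none had an unadjusted p under 0.05. Krt5, of the epidermis list, was the 1 marker in these lists at 0 in every tumour. On the same scale the called family genes stood at 10.1% (Tnfsf8), 12.2% (Tnfrsf13c), 16.4% (Tnfsf13b), 19.9% (Tnfrsf26), 34.8% (Tnfrsf23), 40.9% (Tnfrsf1b) and 52.2% (Tnfrsf1a) of their Nf1KO means. The part of cell composition in these levels was not tested.

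**Figure D5:**
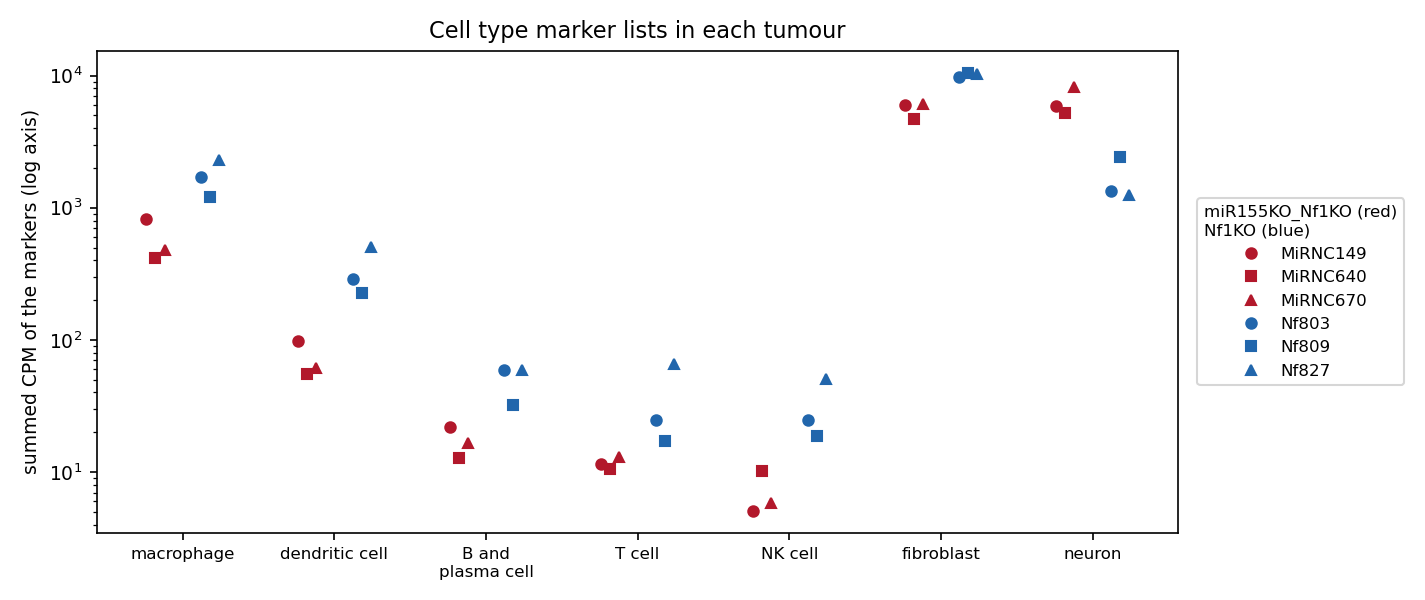
Summed CPM of 7 of the cell type marker lists, on a log axis, with 1 point per tumour; miR155KO_Nf1KO (red) stands left of Nf1KO (blue). Red points lie below blue ones for macrophages (415 to 815 against 1201 to 2316 CPM), dendritic cells, lymphoid lists and fibroblasts, and above them for neurons.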

How the data were processed

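RNA from 6 tumours, 3 per group, was extracted with a Qiagen RNeasy kit and made into Illumina Nextera XT libraries, per the labels' protocols. The deposited data are raw read counts, in whole numbers and unscaled, with a row per gene symbol and a column per tumour. HISAT2 2.0.5, featureCounts 1.5.2 and mm10 are named in the submitters' processing notes. The sources used here do not give the annotation, the strand setting or how reads with several matches were handled. Counts of overlapping, antisense or near-identical genes are therefore uncertain.

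Replicate tumours differed by at least 23.2 times the variance of Poisson sampling, so none was counted as a repeat. Counts were fitted with edgeR 4.0.16 in R 4.3.3 (filterByExpr with a minimum count of 10 and a minimum total of 15, TMM scaling, quasi-likelihood test, two-sided, group as the only term), and p-values were adjusted by Benjamini-Hochberg over all 15604 genes tested, which was first tested on simulated data. Genes were called at an adjusted p under 0.05. Every adjusted p is from edgeR unless another tool is named, and standard errors are those implied by the F statistic. Alternatives were DESeq2 1.42.0, limma voom 3.58.1, other scalings, filters and thresholds, robust estimation, sex as a covariate and leaving out tumours. Exon lengths, positions, 50-base overlaps and 3′ UTRs came from GENCODE M21 (GRCm38, the assembly that mm10 names), in which all 41 family symbols matched.

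Every family gene was to be named, with values in each tumour for called genes and, within each role, for the 4 with the smallest p and the 3 with the highest mean CPM, untested genes by their reads, and the 4 genes of smallest p in each pathway list. Members and lists were chosen with earlier results of these data known. Marker genes of B cells were chosen for separate mention after their values were seen, as were Itgam, Mertk, Gzma and Prf1. One family gene and 1 summed marker list are not reported here.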

Additional observations from a re-analysis of the deposited data

How the results depend on the processing

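No paired analysis was possible because the tumour numbers in the labels differ between the groups. The count of family genes called was 0 higher under every alternative run and 7 lower under other scalings, filters and robust estimation, 8 with DESeq2 or an adjusted p under 0.1, 6 with limma voom or sex as a covariate, and 5 without MiRNC670 and Nf809; leaving out 1 tumour gave 0 to 7. All 7 called genes stayed lower in each of their 16 refits, and 80 of these 112 refits kept the call. The median over tested family genes was -0.43 with a CPM of at least 1 in 3 tumours and -0.93 without MiRNC670 and Nf809, and -0.85 to -0.45 with 1 tumour left out. Signs turned for uncalled genes: Cd27 with sex as a covariate (0.0055), without MiRNC149 (0.044) or without Nf803 (0.032; -0.62 to 0.044 with 1 tumour left out), Tnfsf18 without MiRNC670 (0.0017), without Nf809 (0.10; -0.54 to 0.10 with 1 tumour left out) or without both (0.25), and Tnfsf15 without both (-0.049). Over all genes, DESeq2 called 1489 higher and 1473 lower, an adjusted p under 0.1 gave 1383 and 1319, sex as a covariate gave 534 higher, and leaving out 1 tumour gave 0 to 1183 higher and 0 to 1059 lower. Pathway genes called were 4 higher and 20 lower with DESeq2, 2 and 19 at an adjusted p under 0.1, 7 lower with sex as a covariate, 1 higher and 6 lower without MiRNC670 and Nf809, and 0 to 2 higher and 0 to 14 lower with 1 tumour left out. With the 8-base site alone, 1 tested family gene held a miR-155 site. The causes were not tested. Depth limits the 14 untested family genes, none of which passed 29 reads in any tumour.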

Other observations

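The read-through Tnfsfm13 had 2, 8 and 2 reads in MiRNC149, MiRNC640 and MiRNC670 and 5, 3 and 4 reads in Nf803, Nf809 and Nf827. Foxp3, the regulatory T cell factor chosen after its values were seen, was at 5.21, 4.46 and 3.96 CPM in miR155KO_Nf1KO and 5.73, 1.85 and 4.55 CPM in Nf1KO, with no call, while Cd4 was at 0.966, 1.62 and 4.198 CPM in miR155KO_Nf1KO and 3.34, 3.71 and 25.5 CPM in Nf1KO.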
